A study of Danio rerio with 6 samples.

Results

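The comparison set *tars*-/- zebrafish embryos injected with *perk* morpholino (MO) beside sibling embryos injected with *gcn2* MO, all collected whole at 36 hours post-fertilization (hpf). These were 2 of the 6 libraries of the series, and the members described here are the 19194 of 34326 genes that averaged at least 1 CPM (reads per 1000000 reads on genes) over the 6 libraries. The other 4 conditions were *tars*-/- embryos without injection or with *gcn2* MO and siblings without injection or with *perk* MO. The *tars*-/- embryos came from a line made by chemical mutagenesis and were homozygous for a nonsense mutation in *tars*, which codes for the cytosolic threonyl-tRNA synthetase, so that only a truncated protein without the catalytic part can be made. The line was kept as heterozygotes, the siblings were labelled WT, and the sources used here do not say whether carriers of the mutation were among them. The MOs, antisense oligonucleotides that block the making of a protein, were injected into zygotes, and there was no library with a control MO. All embryos, uninjected ones included, grew in phenylthiourea, which prevents pigmentation, and the number of embryos pooled per library is not given in the sources used here.

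Gcn2 and Perk are kinases of the translation factor eIF2alpha. Gcn2 is switched on by uncharged tRNA, as builds up when a tRNA synthetase or an amino acid is missing, and Perk by misfolded protein in the endoplasmic reticulum (ER). Phosphorylated eIF2alpha lowers translation of most mRNAs but favours that of Atf4, a bZIP transcription factor that raises genes of amino acid synthesis, amino acid uptake and tRNA charging, known together as the amino acid response (AAR). The *tars*-/- embryos of this comparison were thus depleted of Perk and not of Gcn2, and the siblings of Gcn2 and not of Tars, as far as the MOs worked. The comparison asks which genes differed between the genotypes when both libraries came from injected embryos, and within it the genotype and the MO cannot be told apart.

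Each condition had 1 library. The compared conditions therefore had no spread between replicates to hold a difference against, no test was run, and the 95% intervals of ratios (exact Clopper-Pearson) cover counting error only. In whole embryos, fewer cells of a type and less RNA per cell cannot be told apart. Between 29949451 and 47516784 reads per library fell on genes, 47516784 in *tars*-/- with *perk* MO and 35379354 in siblings with *gcn2* MO, and the 20 most abundant genes took 14.4% to 16.2% of them. Of the 15 pairs that the 6 libraries form, the present pair had the fifth lowest number of genes at least 2-fold apart, with 361 genes in a range of 67 to 1490. The *perk* MO library differed from uninjected *tars*-/- embryos in 246 genes and the *gcn2* MO library from uninjected siblings in 357, against 1085 for *tars*-/- with *gcn2* MO and 1490 for siblings with *perk* MO. The compared libraries were chosen as the mildly changed injected ones, so these counts restate that choice.

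The targeted gene followed the labels of genotype. *tars* (ENSDARG00000013250) was at 33.9 CPM in *tars*-/- with *perk* MO and 68.1 CPM in siblings with *gcn2* MO, a ratio of 0.498 (95% interval 0.467 to 0.531). With 0.5 CPM added to both its log2 ratio was -0.99, just short of the 2-fold threshold used below. It was past that threshold with 0.1 CPM added (-1.003) and with all libraries thinned to equal depth (-1.03). The other *tars*-/- libraries held 37.3 CPM without injection and 21.3 CPM with *gcn2* MO, and the other siblings 71.6 CPM and 95.9 CPM, so that the 3 *tars*-/- libraries lay below the 3 sibling libraries. The Perk gene, *eif2ak3*, stood at 46.9 CPM in *tars*-/- with *perk* MO and 45.6 CPM in siblings with *gcn2* MO (ratio 1.03, 0.964 to 1.1). MOs act on translation or splicing, so a transcript level need not report the knockdown, and *eif2ak4*, the gene of Gcn2, is not analysed here.

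The difference between these injected libraries ran mostly upward, and genes of amino acid uptake and metabolism were among those with the highest ratios. A gene was counted as called when its log2 ratio, *tars*-/- with *perk* MO over siblings with *gcn2* MO and with 0.5 CPM added to both, was at least 1 in size, which is a 2-fold difference. By that rule 321 genes (1.67% of the 19194) were higher in *tars*-/- with *perk* MO and 40 (0.208%) were lower. With shares this low, a short gene list without a called member does not stand apart from all genes by that count alone. At 1.5-fold, 816 genes (4.25%) were higher and 452 (2.35%) lower. Among them 81 were at least 4-fold higher and 3 at least 4-fold lower. All genes together had a median log2 ratio of -0.03, and from the 5th to the 95th percentile the ratios ran from -0.46 to 0.53, with extremes of -3.16 and 4.27. The counting interval of the ratio lay wholly above 2 for 246 of the 321 genes and wholly below 0.5 for 24 of the 40. The genes lower in *tars*-/- with *perk* MO were scarce ones, with a median of 3.45 CPM over the 2 libraries, against 14.7 CPM for the higher ones.

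The list of stress bZIP factors and their partners also held genes that are not transcription factors, such as *chac1*. Of its 16 genes 12 were at least 2-fold higher in *tars*-/- with *perk* MO and none was lower. The median log2 ratio was 1.71 against -0.03 over all genes. Atf5, an Atf4 relative that is itself translated under eIF2alpha phosphorylation, stood highest through both of its genes. *atf5b* was at 228 CPM in *tars*-/- with *perk* MO and 25.4 CPM in siblings with *gcn2* MO (8.96-fold, 8.37 to 9.6), and *atf5a* at 97.5 CPM and 12.2 CPM (7.96-fold, 7.22 to 8.81). *atf5b* was at 201 CPM in uninjected *tars*-/- embryos and 156 CPM in those with *gcn2* MO, and at 32.4 CPM in uninjected siblings. Siblings with *perk* MO held 101 CPM of *atf5b*, so that the siblings with *gcn2* MO had the lowest level of the 6 libraries.

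*atf3*, a bZIP factor induced by many stresses, was at 50.3 CPM and 7.24 CPM (6.95-fold, 6.10 to 7.93), and *ddit3*, which codes for the pro-apoptotic factor Chop, at 47.2 CPM and 9.19 CPM (5.14-fold, 4.58 to 5.80). *cebpg*, a dimer partner of Atf4, was at 194 CPM and 41.4 CPM (4.69-fold, 4.43 to 4.95). The *atf4* paralogs themselves were less far apart, with *atf4b* at 661 CPM and 212 CPM (log2 ratio 1.64) and *atf4a* at 825 CPM and 455 CPM (log2 ratio 0.86, not called). *chac1*, a target that codes for a glutathione-degrading enzyme, was among the most abundant of the response, at 872 CPM and 150 CPM (5.82-fold, 5.65 to 5.99), with 1051 CPM in uninjected *tars*-/- embryos and 225 CPM in uninjected siblings. *trib3*, a pseudokinase that restrains Atf4, differed in the same direction, at 188 CPM and 40.2 CPM (4.67-fold, 4.42 to 4.95). The feedback side of the pathway, the subunits that guide the phosphatase to eIF2alpha, was higher as well: *ppp1r15b* was at 10.2 CPM and 2.71 CPM (3.75-fold, 3.0 to 4.71) and *ppp1r15a* at 38.8 CPM and 18.4 CPM (2.11-fold, 1.93 to 2.31). *nupr1* and *nupr1a*, of a small stress-induced chromatin protein, stayed under 2-fold, with log2 ratios of 0.71 and 0.50.

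Enzymes of amino acid and one-carbon metabolism divided into those far higher and those alike. Of 26 listed, 14 were at least 2-fold higher, none lower, and the median log2 ratio was 1.35. *bcat1*, the cytosolic branched-chain aminotransferase, was at 76.6 CPM in *tars*-/- with *perk* MO and 3.67 CPM in siblings with *gcn2* MO (20.9-fold, 17.5 to 25), and its mitochondrial counterpart *bcat2* at 78.1 CPM and 91.9 CPM. The serine pathway was higher at its entry steps: *phgdh*, which commits glycolytic carbon to serine, was at 611 CPM and 92.4 CPM (6.61-fold, 6.38 to 6.86) and *psat1*, the next enzyme, at 582 CPM and 77.2 CPM (7.53-fold, 7.24 to 7.84), while *psph*, the last, was at 90.5 CPM and 78.2 CPM (log2 ratio 0.21). *asns*, which makes asparagine, was at 298 CPM and 53.9 CPM (5.52-fold, 5.26 to 5.80).

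The mitochondrial folate enzymes *shmt2* (117 CPM and 27.9 CPM), *mthfd2* (207 CPM and 53.4 CPM) and *aldh1l2* (184 CPM and 40.8 CPM) lay 4.2-fold, 3.87-fold and 4.51-fold apart. Of the cytosolic ones, *shmt1* was at 200 CPM and 103 CPM (log2 ratio 0.95) and *mthfd1b* at 74.3 CPM and 96.0 CPM (log2 ratio -0.37), and of the listed folate enzymes those at least 2-fold higher were all mitochondrial. In the sulfur pathway from homocysteine to cysteine, *cbsb* was at 434 CPM and 102 CPM (4.27-fold) and *cth* at 112 CPM and 28.6 CPM (3.93-fold). *arg2*, the mitochondrial arginase, was at 55.3 CPM and 4.81 CPM (11.5-fold, 9.86 to 13.5). Its log2 ratio of 3.40 was below the 4.47 of the uninjected pair.

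Of 21 listed amino acid transporters, 7 were at least 2-fold higher and none lower. The median log2 ratio was only 0.11, since the others, *slc38a3a* (0.69) apart, lay between -0.45 and 0.41. *slc1a4*, a carrier of small neutral amino acids, was at 526 CPM in *tars*-/- with *perk* MO and 57.3 CPM in siblings with *gcn2* MO (9.18-fold, 8.77 to 9.61). *slc7a3a*, a carrier of cationic amino acids, was at 462 CPM and 64.1 CPM (7.21-fold, 6.91 to 7.53), whereas its paralog *slc7a3b* was at 10.1 CPM and 11.3 CPM. *slc7a5*, the light chain of the large neutral amino acid exchanger, was at 111 CPM and 15.4 CPM (7.21-fold, 6.6 to 7.89), and *slc3a2b*, a gene for its heavy chain, at 149 CPM and 40.6 CPM (3.67-fold, 3.46 to 3.88), with its paralog *slc3a2a* at 109 CPM and 92.0 CPM. The ratio of *slc7a5* was wider than in the uninjected pair, where it was at 64.2 CPM and 23.2 CPM (log2 ratio 1.45 against 2.81 here). Its level in *tars*-/- with *perk* MO was the highest of the 6 libraries and that in siblings with *gcn2* MO the lowest. *slc6a15*, a carrier of branched-chain amino acids in the nervous system of mammals, was not on the list and had the highest log2 ratio of all genes that have a symbol and average 5 CPM or more over the pair: 190 CPM and 9.38 CPM (20.2-fold, 18.1 to 22.6). It too was widened from both ends, since uninjected embryos held 164 CPM and 25.4 CPM.

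The cytosolic aminoacyl-tRNA synthetases, which load amino acids onto tRNAs, were higher almost without exception. All 21 other than *tars* had a log2 ratio above 0 (44.1% of all genes did), 17 were at least 2-fold higher, and their median log2 ratio was 1.31. Their summed level was 5467 CPM in *tars*-/- with *perk* MO and 1836 CPM in siblings with *gcn2* MO, beside 4344 CPM and 1719 CPM in the uninjected pair, while siblings with *perk* MO held 2441 CPM and *tars*-/- with *gcn2* MO 2894 CPM. *nars*, for asparagine, was farthest apart at 733 CPM and 123 CPM (5.94-fold, 5.75 to 6.13), followed by *aars*, for alanine, at 1033 CPM and 247 CPM (4.18-fold, 4.09 to 4.28), and *yars*, for tyrosine, at 200 CPM and 53.9 CPM (3.70-fold, 3.53 to 3.89). At the other end stood *tarsl2*, a second gene of the threonyl-tRNA synthetase family, at 12.9 CPM and 11.4 CPM (1.13-fold, 0.996 to 1.28), whose interval took in 1. None of the 15 mitochondrial synthetases kept was called in either direction, beside 1.67% of all genes called higher and 0.208% lower. Their median log2 ratio was -0.06. *aars2*, the mitochondrial counterpart of *aars*, was at 6.97 CPM and 9.33 CPM (ratio 0.747, 0.639 to 0.872).

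**Figure D1:**
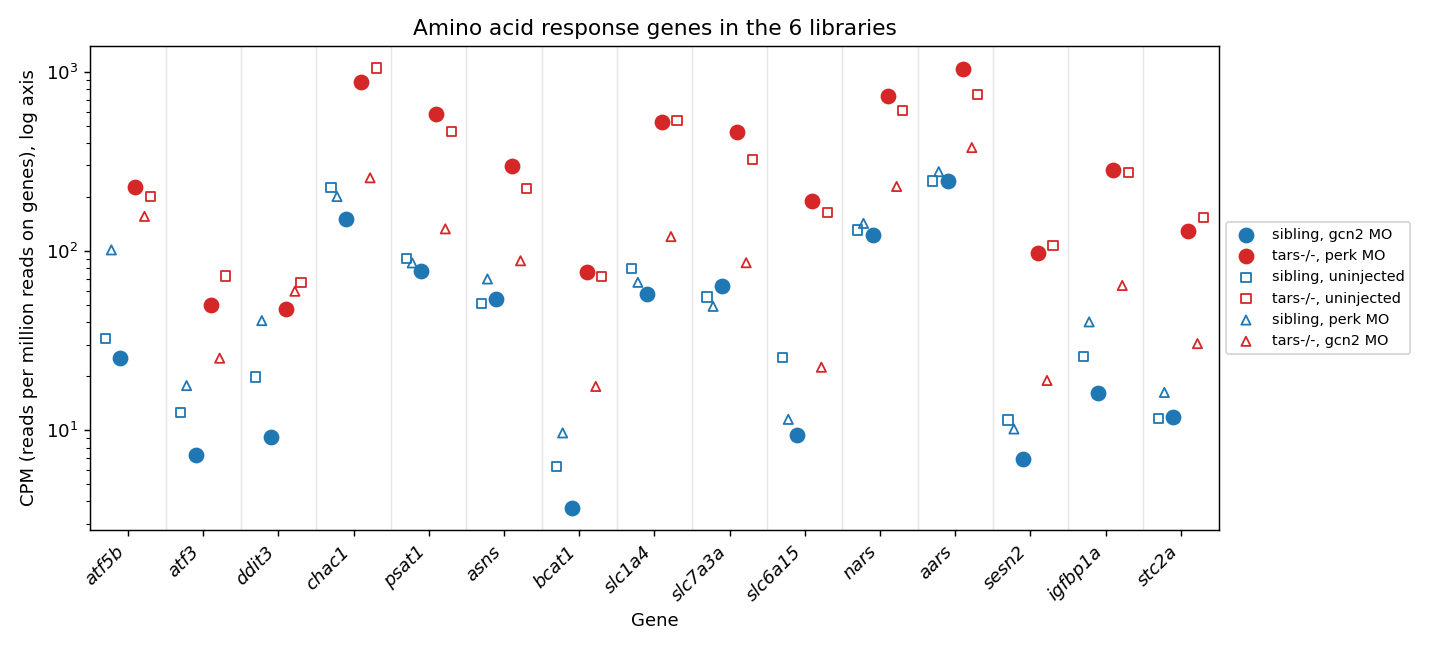
Levels in CPM (log axis) of 15 amino acid response genes in the 6 libraries, with 1 point per library. Filled circles are the pair compared (siblings with *gcn2* MO in blue, *tars*-/- with *perk* MO in red), squares the uninjected embryos and triangles the other 2 injected libraries. For *chac1* the filled points stand at 872 CPM and 150 CPM, and the open triangles lie closer to each other than the filled circles do for each of the 15 genes.

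Taken over the 4 lists of factors and partners, enzymes, transporters and cytosolic synthetases, 50 of 85 genes were at least 2-fold higher. None was called lower, and the median log2 ratio was 1.21. These 50 made up 15.6% of the 321 genes higher in *tars*-/- with *perk* MO, so that 271 of those genes lay outside the lists. The summed level of the 85 genes was 15377 CPM in *tars*-/- with *perk* MO, above the 13754 CPM of uninjected *tars*-/- embryos and the 8456 CPM of *tars*-/- with *gcn2* MO. It was 5375 CPM in siblings with *gcn2* MO, below the 5611 CPM of uninjected siblings and the 7197 CPM of siblings with *perk* MO. The compared libraries were thus the highest and the lowest of the 6 in this sum.

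Genes of translation initiation differed in part. Of 16 listed, 4 were at least 2-fold higher, none lower, and the median log2 ratio was 0.55. eIF2B is the exchange factor that phosphorylated eIF2alpha blocks, and its subunit genes *eif2b4* (122 CPM and 42.3 CPM), *eif2b1* (53.8 CPM and 23.6 CPM) and *eif2b2* (83.9 CPM and 38.6 CPM) lay 2.89-fold, 2.28-fold and 2.18-fold apart. The remaining subunit genes *eif2b5* and *eif2b3* had log2 ratios of 0.84 and 0.44. *eif2ak1*, which codes for the eIF2alpha kinase Hri, was at 27.9 CPM and 13 CPM (2.15-fold, 1.93 to 2.40). The genes of the 4E-binding proteins, which hold back initiation at the mRNA cap, were alike in both libraries, with log2 ratios of -0.15 to -0.02.

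Of 17 listed secreted stress and growth factors 3 were called, all higher, with a median log2 ratio of 0.18, and those 3 included some of the largest ratios of all genes. *igfbp1a*, an insulin-like growth factor binding protein induced by amino acid lack, was at 283 CPM in *tars*-/- with *perk* MO and 16.0 CPM in siblings with *gcn2* MO (17.6-fold, 16.2 to 19.2). *stc2a*, a stanniocalcin, was at 129 CPM and 11.9 CPM (10.9-fold, 9.84 to 12.0). Uninjected *tars*-/- embryos held 273 CPM of *igfbp1a* and 155 CPM of *stc2a*, close to the levels with *perk* MO, and those with *gcn2* MO 64.2 CPM and 30.4 CPM. *adm2a*, a vasoactive peptide of the adrenomedullin family, was outside the list and at 24.1 CPM and 2.01 CPM (12.0-fold, 9.44 to 15.5).

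Of the angiogenic ligands, *vegfaa* was at 42.6 CPM in *tars*-/- with *perk* MO and 12.0 CPM in siblings with *gcn2* MO (3.56-fold, 3.21 to 3.97), and its paralog *vegfab* at 17.4 CPM and 12.9 CPM (1.34-fold, 1.2 to 1.51). All 3 sibling libraries lay between 11.7 and 14.2 CPM of *vegfaa*, and the *tars*-/- libraries at 44.8 CPM without injection and 19.8 CPM with *gcn2* MO. The endothelial genes as a list lay slightly above the median of all genes, with a median log2 ratio of 0.13. Of the 26, 20 had a log2 ratio above 0 (44.1% of all genes did), 6 were below 0, and 1 was called, higher. That gene was *esm1*, made by the tip cells of sprouting vessels, at 14.9 CPM and 4.01 CPM (3.70-fold, 3.09 to 4.46). *flt1*, a receptor that traps Vegf, came next at 15.9 CPM and 7.94 CPM (2.0-fold, 1.74 to 2.30; log2 ratio 0.96, not called), while *kdrl*, a Vegf receptor found throughout zebrafish vessels, was at 71.4 CPM and 69.8 CPM.

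Of the 5 listed inhibitors of the growth kinase mTORC1, only *sesn2* was called. It codes for a sestrin that holds mTORC1 back when leucine is short, and was at 97.9 CPM in *tars*-/- with *perk* MO and 6.87 CPM in siblings with *gcn2* MO (14.3-fold, 12.5 to 16.3). Its relatives *sesn1* (83.3 CPM and 67.8 CPM) and *sesn3* (36.8 CPM and 37.0 CPM) had log2 ratios of 0.29 and -0.01. *ddit4*, another inhibitor of mTORC1 that stress induces, was at 17.3 CPM and 8.48 CPM, just under the threshold with a log2 ratio of 0.99.

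Genes outside these lists also stood at the top. *mat2ab*, which codes for a methionine adenosyltransferase, was at 162 CPM in *tars*-/- with *perk* MO and 11.2 CPM in siblings with *gcn2* MO (14.4-fold, 13 to 16). *pmt* was at 59.3 CPM and 5.43 CPM (10.9-fold, 9.44 to 12.7), *slc25a47a*, of the mitochondrial carrier family, at 14.9 CPM and 1.02 CPM (14.7-fold, 10.5 to 21.1), and *mdp1* at 53.4 CPM and 3.53 CPM (15.1-fold, 12.6 to 18.2). *lrrc58a* was at 22.3 CPM and 1.24 CPM (17.9-fold, 13.2 to 24.8) and *si:rp71-80o10.4* at 14.7 CPM and 0.339 CPM (43.3-fold, 24.6 to 84.2), a ratio with a wide interval because 12 reads lay behind the sibling value. Chosen after their values were seen, *mtr*, the methionine synthase, was at 71.6 CPM and 14.1 CPM (5.07-fold), *aspg*, an asparaginase, at 77.4 CPM and 9.24 CPM (8.38-fold), and *lonp1*, a protease of the mitochondrial matrix, at 208 CPM and 42.2 CPM (4.92-fold). All 9 of these genes were at least 2-fold higher in uninjected *tars*-/- embryos too.

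Single genes of the interferon response were also far apart, and others on the list were nearly alike. Of 15 listed innate immune genes 3 were at least 2-fold higher and none lower, and the median log2 ratio was 0.09 over all 15, 8 of which averaged under 1 CPM. It was 0.58 over the 7 kept, which held the 3 called genes (1.67% of all genes were called higher). Among the 3 averaging 5 CPM or more it was 0.20. Those were *irf7*, *stat1a* and *txndc15*, a gene named for a thioredoxin domain, with a log2 ratio of -0.09. *irf3*, a transcription factor that switches on interferon genes, was at 11.2 CPM in *tars*-/- with *perk* MO and 0.339 CPM in siblings with *gcn2* MO (33.1-fold, 18.8 to 64.4), and *irf7*, a related factor, at 22.1 CPM and 1.78 CPM (12.4-fold, 9.61 to 16.3). Both were at their highest of the 6 libraries in *tars*-/- with *perk* MO: uninjected *tars*-/- embryos held 5.84 CPM of *irf3* and 13.5 CPM of *irf7*, and those with *gcn2* MO 1.99 CPM and 4.91 CPM. *isg15*, an interferon-induced ubiquitin-like protein, was at 4.97 CPM and 0.141 CPM (log2 ratio 3.09), and in the other libraries at 0.202 CPM (uninjected siblings) to 2.24 CPM (siblings with *perk* MO). *stat1a*, which carries the interferon signal to the nucleus, was nearly alike at 13.9 CPM and 12.0 CPM (log2 ratio 0.20). The leukocyte genes, markers of neutrophils and macrophages, had 0 of 9 called and a median log2 ratio of -0.08, with *lyz* at 51.2 CPM and 52.5 CPM and *mpx* at 41.5 CPM and 34.2 CPM.

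**Figure D2:**
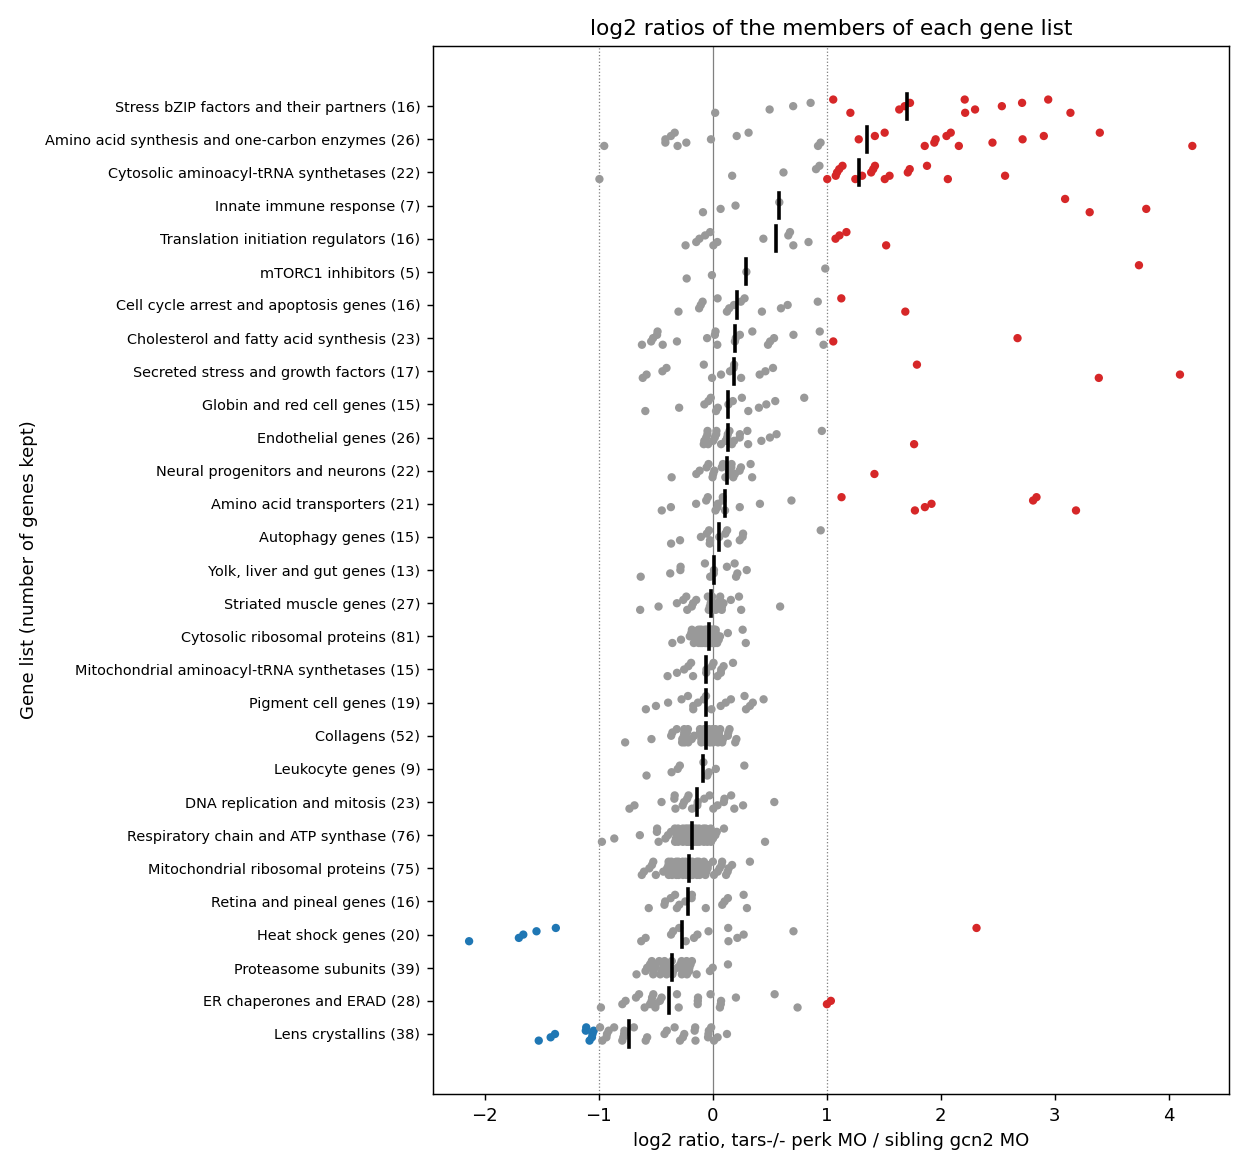
log2 ratios, *tars*-/- with *perk* MO over siblings with *gcn2* MO, of the members of the 29 gene lists. Each point is a gene and each black bar the median of its list. Genes at least 2-fold higher are in red and those at least 2-fold lower in blue. The highest medians are those of the list of bZIP factors and partners (1.71), the enzymes (1.35) and the cytosolic synthetases (1.28). The lowest is that of the lens crystallins (-0.73).

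Genes of the unfolded protein response of the ER held 2 called regulators, while their chaperones lay mostly below 0. Of 28 listed genes 2 were called, both higher, beside 1.67% of all genes called higher and 0.208% lower. *xbp1*, a bZIP factor activated by splicing, was at 599 CPM in *tars*-/- with *perk* MO and 299 CPM in siblings with *gcn2* MO (2.0-fold, 1.96 to 2.05). The sensor *atf6* was at 99.6 CPM and 48.3 CPM (2.06-fold, 1.95 to 2.18). *xbp1* lay at the threshold, with a log2 ratio of 1.0016 that was 0.998 with 2 CPM added and 0.988 at equal depth, where it was no longer called. The other sensor, *ern1*, was at 59.7 CPM and 40.8 CPM. Of the 25 chaperone, folding and degradation genes, 20 had a log2 ratio below 0 (55.9% of all genes did), none was called, and the median was -0.46. Their summed level was 1898 CPM in *tars*-/- with *perk* MO and 2598 CPM in siblings with *gcn2* MO. *hspa5*, which codes for the main ER chaperone BiP, was at 345 CPM and 496 CPM (ratio 0.696, 0.682 to 0.711), *hsp90b1* at 207 CPM and 352 CPM (0.588, 0.572 to 0.604) and *creld2* at 5.45 CPM and 11.2 CPM (0.485, 0.413 to 0.568). The log2 ratio of *creld2*, -0.98 with 0.5 CPM added, was past the threshold with 0.1 CPM added (-1.03) and at equal depth (-1.04). In the sibling with *gcn2* MO these chaperones were at the upper end of the series: 496 CPM of *hspa5* was the highest of the 6 libraries, and the others ran from 283 CPM to 473 CPM. *herpud1*, an ER degradation factor, was the member farthest above 0 among the 25, at 39.6 CPM and 23.5 CPM (1.69-fold, 1.56 to 1.84).

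Set beside the uninjected pair, which has the same genotypes and shares no library with the present one, most genes higher in uninjected *tars*-/- embryos were called here as well and most of the lower ones were not. In uninjected embryos 213 genes (1.11%) were at least 2-fold higher in *tars*-/- and 109 (0.568%) lower, and at 1.5-fold 555 (2.89%) were higher and 1059 (5.52%) lower. Of these 213, 176 were also called higher here, which is 54.8% of the 321 and 82.6% of the 213. Of the 109 lower genes, 16 were called lower here (0.208% of all genes were), which is 40% of the 40 and 14.7% of the 109. Among the 109, 86 had a log2 ratio below 0 here (55.9% of all genes did), with a median of -0.23. In the uninjected pair 304 of the 321 had a log2 ratio above 0 (33.1% of all genes did), with a median of 1.08, and 36 of the 40 had one below 0 (66.9% of all genes did). The 145 genes called higher here and not there had a median of 0.63 there, and the 37 called there and not here a median of 0.65 here. Across the 19194 genes, which are not independent, the log2 ratios of the pairs had a Pearson correlation of 0.57 and a Spearman correlation of 0.34. The median of all genes in the uninjected pair was -0.11, and 0.0014 when TMM factors were used in place of the total.

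The ratios of the response were somewhat larger here than in the uninjected pair, with a median of 1.21 here and 1.03 there for the 4 AAR lists and of 1.31 and 1.1 for the synthetases other than *tars*, beside medians of all genes of -0.03 and -0.11. The 213 genes higher in uninjected *tars*-/- embryos had a median log2 ratio of 1.70 here. Among the genes called here and not in uninjected embryos were several that lay just under the threshold there, such as the synthetase gene *dars* at 230 CPM and 96.4 CPM (log2 ratio 1.25 here and 0.95 there) and the transporter gene *slc38a2*, whose product imports neutral amino acids, at 194 CPM and 51.0 CPM (1.92 here and 0.95 there). Others, chosen after their values were seen, were farther from the threshold there. *tfe3a*, a transcription factor of lysosomal genes, was at 15.7 CPM and 3.76 CPM (4.17-fold, 3.46 to 5.05; log2 ratio 1.92 here and 0.50 there). *slc23a2*, a vitamin C carrier, was at 11.2 CPM and 3.79 CPM (1.45 here and 0.16 there), *lepr*, the leptin receptor, at 44.7 CPM and 19.7 CPM (1.16 and 0.10) and *csf1a*, a macrophage growth factor, at 9.49 CPM and 3.90 CPM (1.18 and 0.12).

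**Figure D3:**
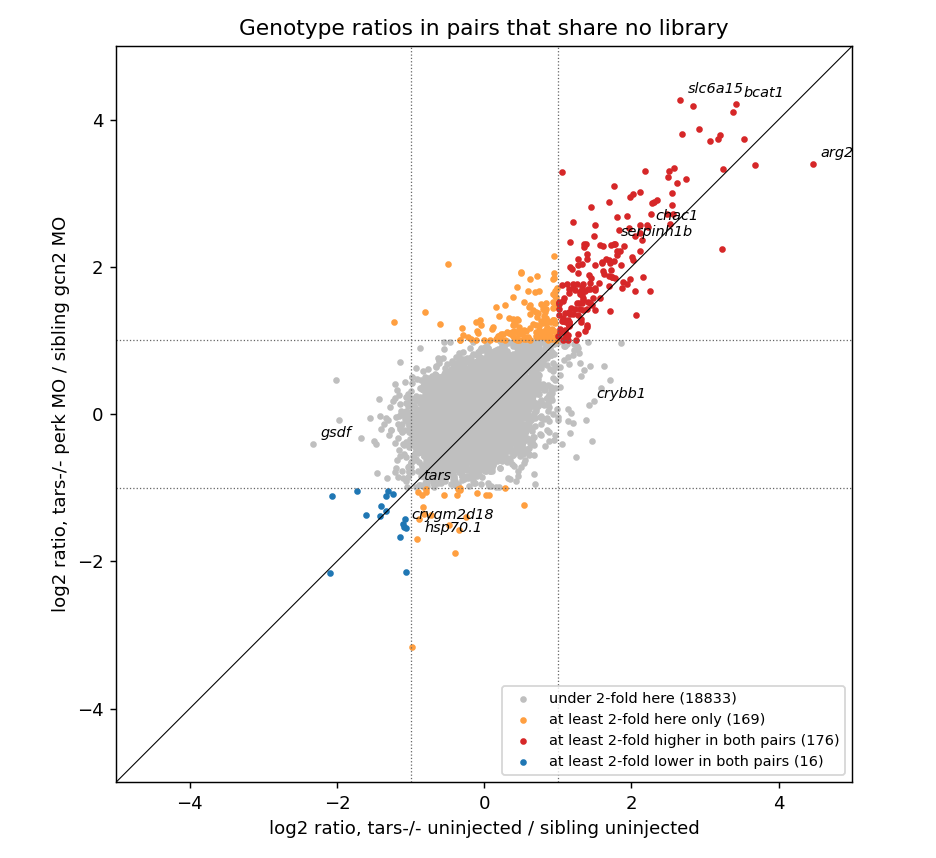
log2 ratio of each of the 19194 genes in the injected pair (vertical axis) against the uninjected pair (horizontal axis), with dotted lines at 2-fold and a solid line where both ratios are equal. Red points mark 176 genes called higher in both pairs, blue points the 16 lower in both, and orange points the 169 called here only; most red points lie above the solid line.

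The remaining pair that shares no library with the present one, *tars*-/- with *gcn2* MO over siblings with *perk* MO, had 47 genes (0.245%) at least 2-fold higher and 20 (0.104%) lower. Of the 321 genes, 11 were called higher there (3.43% of the 321 and 23.4% of the 47), and 6 of the 40 lower there (15% of the 40 and 30% of the 20). The median of the 321 there was 0.32, with 280 above 0 (58.1% of all genes were), and across all genes the Pearson correlation was 0.25. When *tars*-/- and siblings had the same MO, each pair shared a library with the present one. The 321 genes were picked by their values in the shared libraries, so their ratios in these pairs are partly built in and are no independent support. They had a median log2 ratio of 1.23 with *perk* MO, where 206 of them were called higher (3.39% of all genes were). With *gcn2* MO their median was 0.62, and 82 were called higher (1.85%). The 21 synthetases other than *tars* followed the same order, with medians of 0.85 with *perk* MO, 0.68 with *gcn2* MO and 0.15 for *tars*-/- with *gcn2* MO over siblings with *perk* MO, against 1.31 here.

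Of the 40 genes lower in *tars*-/- with *perk* MO, 14 averaged 5 CPM or more over both libraries, and these were led by lens crystallins and inducible heat shock genes. The lowest log2 ratio of all genes, -3.16, was in neither list, whose lowest were -1.53 and -2.14. Both are groups of near-identical paralogs whose single values are uncertain because the counting could split or drop reads that fit several of them. Of 38 lens crystallins, the structural proteins of the lens, 9 were at least 2-fold lower, none was higher, and the median log2 ratio was -0.73. All 20 *crygm2d* genes, the gamma M crystallins of fish, had a log2 ratio below 0, from -1.53 to -0.40, and 8 were called. Their summed level, which is safer than any single one, was 678 CPM in *tars*-/- with *perk* MO and 1262 CPM in siblings with *gcn2* MO, and in the other libraries 1080 CPM (uninjected *tars*-/-), 902 CPM (*tars*-/- with *gcn2* MO), 1099 CPM (siblings with *perk* MO) and 2174 CPM (uninjected siblings). The 3 *tars*-/- libraries lay below the 3 sibling libraries in this sum. *crygm2d18* was farthest apart at 12.8 CPM and 37.9 CPM (ratio 0.338, 0.307 to 0.373), followed by *crygm2d14* at 3.54 CPM and 10.3 CPM (0.343, 0.284 to 0.413) and *crygm2d2* at 12.5 CPM and 33.5 CPM (0.374, 0.338 to 0.413). The 15 alpha and beta crystallins with *crygs* and *crygn* genes were not lower to this extent, with none called, a median of -0.15 and summed levels of 1647 CPM and 1719 CPM.

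Of 20 listed heat shock genes, most of cytosolic chaperones but with *serpinh1b* of the ER and *hspd1* of mitochondria among them, 5 were at least 2-fold lower and 1 was higher, with a median log2 ratio of -0.27. The lower ones were inducible *hsp70* genes, together with *hsp70l* and a gene listed as *HSPA8*, which were at 3.42 CPM and 3.65 CPM in siblings with *gcn2* MO and below 1 CPM in *tars*-/- with *perk* MO. *hsp70.3* was at 13.8 CPM in *tars*-/- with *perk* MO and 44.9 CPM in siblings with *gcn2* MO (ratio 0.308, 0.281 to 0.338), *hsp70.1* at 5.30 CPM and 18.4 CPM (0.289, 0.249 to 0.334) and *hsp70.2* at 5.18 CPM and 14.2 CPM (0.363, 0.311 to 0.424). These genes varied widely over the series, with *hsp70.3* at 180 CPM in uninjected siblings, 81.3 CPM in uninjected *tars*-/- embryos, 72.5 CPM in siblings with *perk* MO and 62.8 CPM in *tars*-/- with *gcn2* MO, so that the compared libraries were the 2 lowest. The constitutive *hspa8* and *hsp90ab1* were alike in both libraries, with log2 ratios of -0.16 and -0.04.

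The higher gene was *serpinh1b*, a chaperone of collagen in the ER, at 1704 CPM in *tars*-/- with *perk* MO and 342 CPM in siblings with *gcn2* MO (4.98-fold, 4.89 to 5.08). The sibling value was the lowest of the 6 libraries, below the 876 CPM of uninjected siblings, and the mutant value was below the 2977 CPM of uninjected *tars*-/- embryos. None of the 52 collagen genes was called, and their median log2 ratio was -0.06. *atp2a1l*, of the calcium pumps of the sarcoplasmic reticulum, was at 45.4 CPM and 117 CPM (ratio 0.389, 0.369 to 0.410), while none of the 27 striated muscle genes was called, with a median of -0.01. Among the remaining genes of the 15 lowest, *zgc:173443* was at 6.36 CPM and 14.1 CPM, *zgc:65851* at 3.56 CPM and 7.83 CPM and *cyp2r1*, a vitamin D hydroxylase in mammals, at 3.75 CPM and 8.11 CPM.

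**Figure D4:**
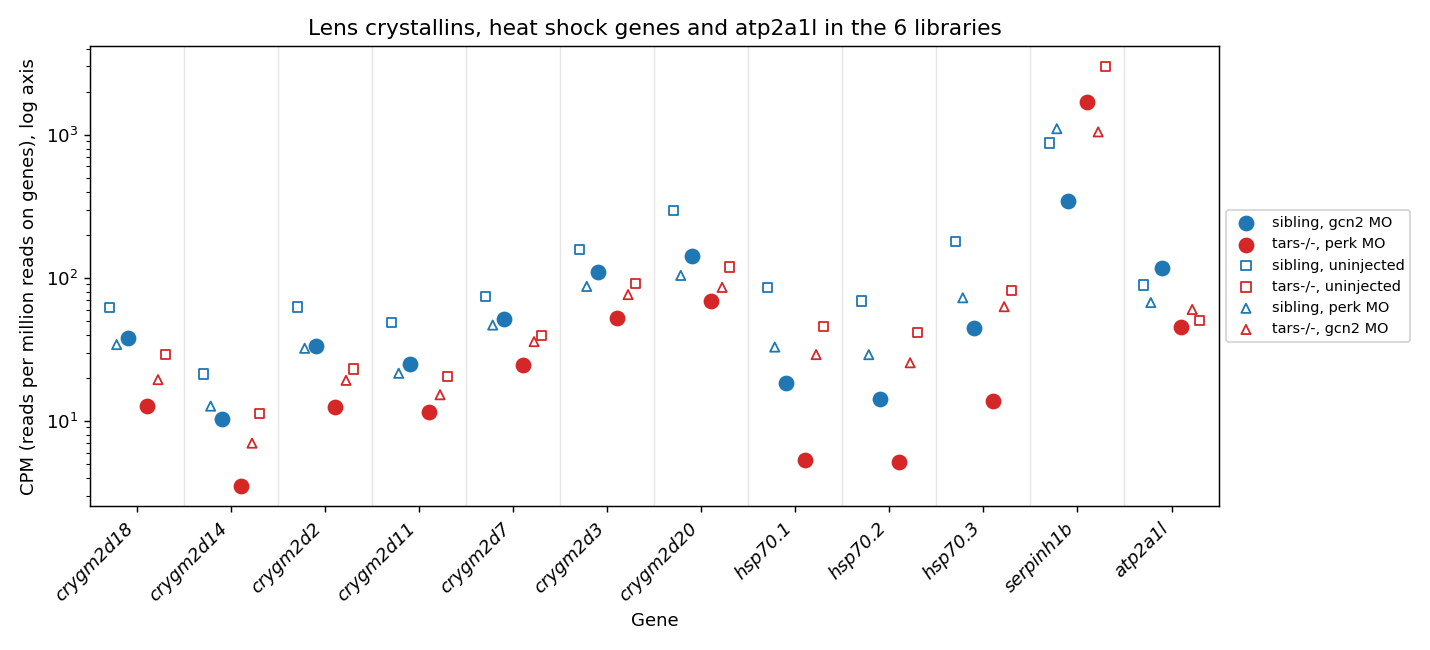
Levels in CPM (log axis) of 7 lens crystallins, 3 *hsp70* genes, *serpinh1b* and *atp2a1l* in the 6 libraries, with 1 point per library and the markers as in the plot of response genes. The *hsp70.3* points of the compared pair, 13.8 CPM and 44.9 CPM, are the lowest of the 6, and for *serpinh1b* the sibling with *gcn2* MO, at 342 CPM, is the lowest.

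Both libraries came from injected embryos, and most of the listed genes of cell cycle arrest and apoptosis were above the uninjected levels in them. Of 16 such genes 12 were above the uninjected embryos of the same genotype in both libraries, 1 was below in both and 3 were mixed. The share of all genes above in both was not computed, so the 12 do not show whether this list stood apart from all genes. Against the same uninjected embryos, all genes had a median log2 ratio of 0.05 in *tars*-/- with *perk* MO and -0.02 in siblings with *gcn2* MO. Between the compared libraries 2 of the 16 were called, both higher, and the median log2 ratio was 0.22. *mdm2*, which codes for a ubiquitin ligase, was at 57.5 CPM in *tars*-/- with *perk* MO and 55.8 CPM in siblings with *gcn2* MO, *ccng1*, which codes for cyclin G, at 1162 CPM and 1236 CPM, and *phlda3* at 11.2 CPM and 10.2 CPM. These genes were lower in the uninjected libraries (*mdm2* at 28.1 CPM in siblings and 34.0 CPM in *tars*-/-) and far higher in the other injected libraries (226 CPM of *mdm2* in siblings with *perk* MO, 224 CPM in *tars*-/- with *gcn2* MO). *cdkn1a*, a cell cycle inhibitor, was at 16.6 CPM and 10.8 CPM (1.54-fold, 1.36 to 1.74). The called members were *bbc3*, a pro-apoptotic gene also known as Puma, at 15.2 CPM and 4.35 CPM (3.48-fold, 2.92 to 4.17), and *tp53inp1* at 90.2 CPM and 41.0 CPM (2.20-fold, 2.07 to 2.34). *bbc3* was at 5.27 CPM in uninjected *tars*-/- embryos and 2.43 CPM in uninjected siblings. *mdm2*, *ccng1* and *phlda3* were picked after their values were seen.

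None of 16 retina and pineal genes was called, with a median log2 ratio of -0.21. Beside the uninjected embryos of the same genotype 8 of them were lower in both libraries, 4 higher in both and 4 mixed. The share of all genes lower in both was not computed, so the 8 do not show whether this list stood apart from all genes. The medians of all genes against these embryos were 0.05 and -0.02. *crx*, a transcription factor of photoreceptors and pineal cells, was at 2.46 CPM in *tars*-/- with *perk* MO and 3.87 CPM in siblings with *gcn2* MO, against 22.6 CPM and 34.1 CPM in the uninjected *tars*-/- embryos and siblings. *nr2e3*, a nuclear receptor of photoreceptors, was at 0.863 CPM and 1.33 CPM against 10.9 CPM and 13.8 CPM. *vsx1*, of bipolar cells of the retina, was at 8.63 CPM and 7.07 CPM, against 24.4 CPM in uninjected *tars*-/- embryos and 32.6 CPM in uninjected siblings. *rx2*, of the early retina, was above its uninjected level in both, at 6.73 CPM and 8.37 CPM against 4.85 CPM and 7.03 CPM. *crx*, *nr2e3* and *vsx1* were among the 8 lower in both and do not stand for the whole list. *crx* and *nr2e3* were picked after their values were seen.

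**Figure D5:**
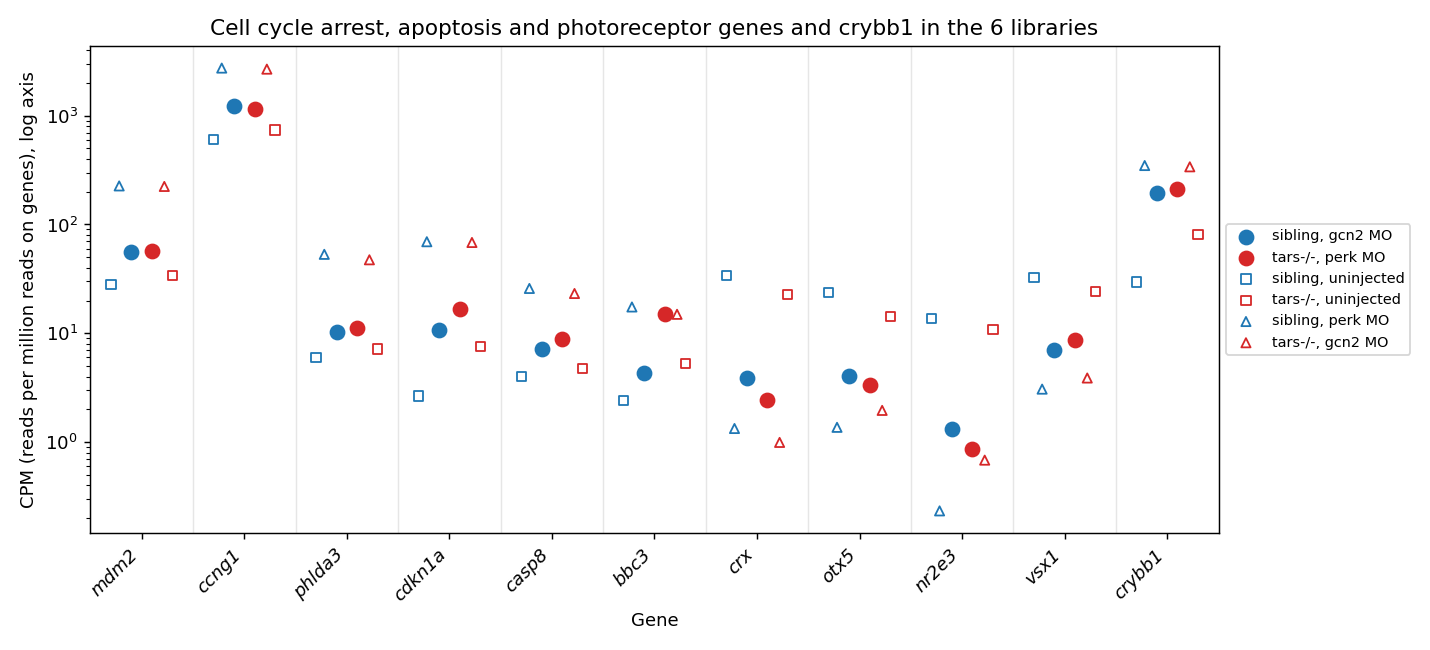
Levels in CPM (log axis) of 6 cell cycle arrest and apoptosis genes, 4 photoreceptor and retina genes and *crybb1* in the 6 libraries, with 1 point per library and the markers as in the plot of response genes. For *mdm2* the filled circles of the compared pair lie at 57.5 CPM and 55.8 CPM, between the uninjected libraries (28.1 and 34.0 CPM) and the open triangles (226 and 224 CPM).

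Among genes averaging at least 5 CPM over the 6 libraries, several of those whose ratio departed most from that of the uninjected pair were alike in the injected libraries and unlike in uninjected embryos. The genes were picked by that departure, so it is built in. *crybb1*, a beta crystallin, was at 213 CPM in *tars*-/- with *perk* MO and 195 CPM in siblings with *gcn2* MO (1.09-fold, 1.06 to 1.12), but at 80.4 CPM and 29.6 CPM in uninjected *tars*-/- embryos and siblings (log2 ratio 1.43). *CU855942.1*, *BX470240.1* and *BX088646.1* had log2 ratios of 0.18, -0.08 and -0.12 here and of 1.48, 1.38 and 1.21 there. The latter rested on few reads, with 0.303, 0.202 and 0.202 CPM in uninjected siblings and 1.75, 1.33 and 1.13 CPM in uninjected *tars*-/- embryos. The average of 5 CPM was reached through siblings with *perk* MO (35.9, 21.9 and 36.8 CPM) and *tars*-/- with *gcn2* MO (32.8, 23.9 and 34.5 CPM). In the other direction *gsdf*, a growth factor of the TGF-beta family, was at 3.54 CPM and 4.86 CPM here (ratio 0.727, 0.584 to 0.905) and at 2.93 CPM and 16.7 CPM in uninjected embryos (log2 ratio -2.33). *CU927934.3*, *CU927934.1* and *c3a.3*, a complement gene, had log2 ratios of 0.47, -0.08 and 0.71 here and -2.01, -1.98 and -1.15 there. Their highest levels were in siblings with *perk* MO (32.4, 17.3 and 17.4 CPM) and *tars*-/- with *gcn2* MO (40.0, 22.0 and 12.3 CPM). Uninjected *tars*-/- embryos held 0.282 CPM of *CU927934.3* and 0 CPM of *CU927934.1*, so those ratios depended on the 0.5 CPM added. *CABZ01084613.1* had opposite signs, with -0.58 here and 1.25 there, and *slc6a15*, already given, was higher in both and farther apart here (4.27 and 2.67).

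Several large groups of housekeeping genes had medians slightly below that of all genes, and no member was called. Of 39 proteasome subunits 38 had a log2 ratio below 0 (55.9% of all genes did), with a median of -0.36, and *psmd1* was farthest apart at 127 CPM in *tars*-/- with *perk* MO and 201 CPM in siblings with *gcn2* MO (ratio 0.628, 0.607 to 0.650). Of 76 genes of the respiratory chain and ATP synthase 71 were below 0, with a median of -0.19, and *ndufb2*, a subunit of complex I, was at 11.4 CPM and 22.8 CPM (0.499, 0.446 to 0.557). Its log2 ratio was -0.97 with 0.5 CPM added and -1.01, past the threshold, at equal depth. Of 75 mitochondrial ribosomal proteins 64 were below 0, with a median of -0.21. The 81 cytosolic ribosomal proteins had a median of -0.03, at that of all genes, and a range of -0.35 to 0.29. Of 23 replication and mitosis genes none was called, with a median of -0.14, and the members of the replicative helicase were lowest, with *mcm3* at 109 CPM and 181 CPM (0.601, 0.580 to 0.624) and *mcm4* at 160 CPM and 258 CPM (0.620, 0.602 to 0.640).

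In lipid synthesis 2 of 23 genes were called, both higher, with a median log2 ratio of 0.19. *hmgcra*, a gene of the rate-limiting reductase of cholesterol synthesis, was at 16.9 CPM in *tars*-/- with *perk* MO and 2.23 CPM in siblings with *gcn2* MO (7.59-fold, 6.02 to 9.69), its paralog *hmgcrb* at 61.3 CPM and 37.3 CPM (1.64-fold, 1.54 to 1.75) and *dhcr7*, the last enzyme of the pathway, at 48.4 CPM and 23.0 CPM (2.10-fold, 1.94 to 2.28). *srebf1*, a master regulator of lipid synthesis, was at 46.2 CPM and 23.3 CPM (log2 ratio 0.97, against 0.04 in uninjected embryos).

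The tissue lists not given above had 1 called gene or none, beside 1.67% of all genes called higher and 0.208% lower. Of 22 neural genes 16 had a log2 ratio above 0 (44.1% of all genes did), with a median of 0.13, and 1 was called. That gene, *CR848841.1*, which current annotation names *nes*, for the progenitor filament nestin, was at 243 CPM and 90.8 CPM (2.68-fold, 2.58 to 2.79). *sox2*, *sox3* and *neurod4* had log2 ratios of 0.24, 0.35 and 0.33. No member was called among 15 globin and red cell genes (median 0.14), 19 pigment cell genes (-0.06), 13 yolk, liver and gut genes (0.01) and 15 autophagy genes (0.06). Among these, *hbbe2*, an embryonic globin, was at 32.7 CPM and 18.5 CPM (1.76-fold, 1.61 to 1.94), *alas2*, of haem synthesis, at 69.1 CPM and 104 CPM (ratio 0.662, 0.631 to 0.694), and *wipi1*, an autophagy gene, at 72.5 CPM and 37.3 CPM (log2 ratio 0.95). Over all 29 lists, 70 of 778 genes were called higher and 14 lower, so that 251 of the 321 higher genes and most of the 40 lower ones lay outside any list.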

How the data were processed

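RNA of whole embryos at 36 hpf was extracted with TRIzol, made into NEBNext Ultra libraries and sequenced on an Illumina Hiseq4000. Per the submitters' processing notes and methods, reads were aligned to GRCz10 with HISAT2 2.0.5 and counted per Ensembl gene with HTSeq; the strand setting is not given in the sources used here. The authors deposited 1 file per library with the raw read count of 34326 genes, the gene length and the FPKM, and that FPKM is the count per length and per library total (relative deviation at most 5.03e-06) and was not used further.

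Counts were divided by the library total (29949451 to 47516784 reads) to give CPM. Genes averaging 1 CPM or more across the 6 libraries were kept, 0.5 CPM was added for log2 ratios, and a ratio of at least 2-fold was called. With 1 library per condition no test was run; 95% intervals are exact binomial ones (Clopper-Pearson), with both library totals taken as given. The computation was tested on simulated counts. Alternatives used TMM factors (edgeR 4.0.16), median-of-ratios size factors (DESeq2 1.42.0), 0.1 or 2 CPM added, no filter, a mean of at least 5 CPM, a threshold of 1.5-fold and counts thinned to 29949451 reads.

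The members and the 29 gene lists were chosen with earlier results of these data known. Of 851 listed symbols 12 were not matched and are not analysed here, and 778 of 839 matched genes were kept; 2 further genes are not reported here. Named were the 15 highest and 15 lowest genes with a symbol and an average of 5 CPM or more over both libraries. *tars* and the gene of Perk were named too, while that of Gcn2 is not analysed here. So were up to 6 members of each list with the largest ratios, and their paralogs. Among genes averaging 5 CPM or more over the 6 libraries, the 5 in each direction whose ratio differed most from the uninjected pair were added. Further list members were named after their values were seen, for their place in a pathway. Symbols are those of the files or, where the files gave none, of a gene name table, as for *mdp1*. That table was also used for list matching. Python 3.11.15, numpy 2.4.6, pandas 2.3.3, scipy 1.17.1, matplotlib 3.10.9 and R 4.3.3 were used.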

Additional observations from a re-analysis of the deposited data

Results flagged for a closer look

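In 3 genes the ratio here was at least 2-fold in a direction opposite to that in another pair of *tars*-/- and sibling libraries, and none of these differences was tested. *BX914200.1* had a log2 ratio of 1.25 here and -1.22 in the uninjected pair, with 2.44 CPM in *tars*-/- with *perk* MO, 0.735 CPM in siblings with *gcn2* MO, 1.16 CPM in uninjected *tars*-/- embryos and 3.36 CPM in uninjected siblings. *BX511034.1* had -1.40 here and 1.39 for *tars*-/- with *gcn2* MO over siblings with *perk* MO, with 4 reads in *tars*-/- with *perk* MO and 37 in siblings with *gcn2* MO. *FO818671.1* had -1.24 here and 1.44 for *tars*-/- with *gcn2* MO over siblings with *perk* MO, with 21 reads and 61 reads in the compared pair. *BX511034.1* and *FO818671.1* averaged 1.01 and 1.49 CPM over the 6 libraries. Their highest levels, 2.30 and 4.76 CPM, were in *tars*-/- with *gcn2* MO. They thus passed the filter of 1 CPM through a library that also gave the opposite ratio. Siblings with *perk* MO held 0.568 and 1.44 CPM.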

How the results depend on the processing

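No paired analysis was possible because the compared conditions had 1 library each and shared neither genotype nor MO; an additive fit of genotype and MO over the 6 libraries was not run. With TMM factors 341 genes were higher and 36 lower, and these held all 321 of the genes called higher and 36 of the 40 called lower. Size factors gave 339 and 36, and thinning to equal depth 320 and 48, with 304 and 34 of the genes called by the totals. The counts of lower genes depended on how scarce genes were handled: 88 were lower with 0.1 CPM added and 66 with no filter, which by construction widened the ratios of scarce genes or let in more of them. A larger addition, a stricter filter or a lower threshold acted the other way or added calls, also by construction. With 2 CPM added 235 genes were called, 13 of them lower, and 4 lower genes were shared with the uninjected pair. Among genes averaging 5 CPM or more, 16 were lower and 9 of them shared. At 1.5-fold 1268 genes were called, 816 higher and 452 lower, 52 list members were lower, and 386 higher and 131 lower genes were shared with the uninjected pair. The higher genes made up 88.9% of the calls, 81.4% with 0.1 CPM added, 94.5% with 2 CPM added and 64.4% at 1.5-fold. None of the 195 genes named by rule that was called changed sign (192 of them could be compared at a mean of 5 CPM or more). Of those not called 4 did, *sesn3*, *lyz*, *eif2ak3* and *CU927934.1*, all within 0.0842 of 0, and the call of 11 named genes changed under 1 or more settings. In all, 21 moved beyond their counting interval with TMM factors, 18 with 2 CPM added and 15 with size factors. Genes given in the text for other reasons, such as *trib3* and *mdm2*, were not among the 195. The median of the striated muscle genes turned from -0.01 to 0.02 with TMM factors, and that of the cytosolic ribosomal proteins from -0.03 to 0.0033. Ratios of genes under about 5 CPM rested on few reads, and without replicates no setting shows how far embryos of a condition differ.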
